A study of Sus scrofa with 102 samples.

Results

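Chromatin regulators are described here in *Longissimus dorsi*, the long muscle of the back, of 102 Iberian × Landrace backcross pigs. Members were genes whose probe carried 1 gene symbol in the array's annotation and whose symbol begins with KDM, KMT, HDAC, SIRT, SMARC, ARID, CHD, BRD, PHF, SETD, KAT, CBX, ING, CDYL or SATB, with *MTF2* added. *KDM6A*, *KDM5C* and *KDM5D* were left out. The rule gave 29 genes of the 2201 genes with a name, on 32 of the 5449 probes tested. The probe with the highest mean was used for *ARID4B*, *HDAC3* and *KMT2E*, which had several. The 29 genes were 5 SWI/SNF and related remodellers (*SMARCA1*, *SMARCA2*, *SMARCA5*, *SMARCB1*, *SMARCD3*), 2 CHD remodellers (*CHD6*, *CHD7*), 5 histone deacetylases (*HDAC1*, *HDAC3*, *HDAC5*, *HDAC6*, *HDAC11*), 3 sirtuins (*SIRT2*, *SIRT3*, *SIRT5*), 6 genes with PHD finger or related readers (*ING2*, *ING3*, *MTF2*, *PHF6*, *PHF12*, *PHF23*), 2 lysine demethylases (*KDM2A*, *KDM5A*), 2 lysine methyltransferases by name (*KMT2E*, *KMT5B*), 2 ARID genes (*ARID4A*, *ARID4B*), *CDYL* and *SATB1*. The authors had kept only probes that varied between pigs, so the 29 are the regulators that passed this filter, and every share over all probes is over probes chosen for varying. BRD, CBX, KAT and SETD names, of which none was among the probes tested with 1 symbol, are not analysed here.

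DNA in the nucleus is wound on histones, and these proteins set how tightly. Remodellers use ATP to slide or evict nucleosomes, deacetylases and sirtuins remove acetyl groups, methyltransferases and demethylases write and erase methyl marks, and readers with PHD fingers or chromodomains bind marked tails and bring in larger complexes. In skeletal muscle they are known for opening muscle genes beside MyoD and MEF2, as SMARCD3 does, or for holding those genes closed, as HDAC5 does. Several carry a histone name but act mostly elsewhere: HDAC6 and SIRT2 deacetylate tubulin in the cytoplasm, and SIRT3 and SIRT5 work in mitochondria.

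The pigs were 55 females and 47 males from 3 slaughter batches, fed freely, and aged 171 to 184 days. Batch 1 held 14 pigs (8 females, 6 males), batch 3 held 18 (11 females, 7 males) and batch 2 held 70 (36 females, 34 males). Ages ran from 171 to 181 days in batch 1, 178 to 181 in batch 3 and 178 to 184 in batch 2. Most batch 1 pigs were younger than any other pig, so that batch 1 differences and age cannot be fully told apart. Carcasses of females weighed 68.6 ± 8.98 kg and those of males 73.2 ± 11.1 kg (SD). By batch, carcasses weighed 65.9 ± 10.2 kg in batch 1, 64.6 ± 11.7 kg in batch 3 and 73.3 ± 8.85 kg in batch 2. Each pig had 1 array, and the pigs are related backcross animals, so that a p-value measures the spread between these pigs as if they were unrelated. The study mapped fatty acid composition and used these arrays for genes of fatty acid metabolism, so that sex, batch and weight are its model terms and not treatments.

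All values are log2 intensities, in which a difference of 1 is a doubling, and probe levels are compared between pigs and never between genes. A probe of low level is close to the array's background, and 3 members (*ARID4A*, *HDAC11*, *SIRT3*) averaged under 4. *CHD7* and *HDAC6* averaged above 4 over all pigs but had medians under 4 in batches 1 and 3. Differences are from limma with sex, batch and carcass weight in 1 model, and a gene was called at a Benjamini-Hochberg adjusted p under 0.05 over all 5449 probes. Array medians ran from 6.20 to 6.68. Of 26 listed muscle markers, 7 were among the probes tested (*DES*, *TNNT1*, *TNNC1*, *TNNI1*, *ATP2A1*, *PYGM*, *TPM2*), and their mean was 13.6 in females and 13.7 in males. The levels of different probes are not comparable, so this describes the muscle label and does not test it. Sex-specific probes were unclear on 4 arrays. Judged by median correlation, 5 arrays were nearer to another batch than to their own (1 of batch 1, 1 of batch 3, 3 of batch 2), and 1 array had a median correlation of 0.746 with the others, against 0.902 for the typical array. Whole muscle was sampled, so that fewer cells of a type and less RNA per cell cannot be told apart.

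Most members differed between slaughter batches, as did most probes of any kind. Array runs and RNA handling are not in the sample labels used here, and their part in the batch differences was not tested. The F test over the batches called 26 of the 29 (89.7%), beside 86.6% of all probes tested, so the share of members called was near the background. By the sign of the fitted differences, 8 of the 26 were higher and 18 lower in both batch 1 and batch 3 than in batch 2. Both contrasts passed singly for all 8 and for 16 of the 18, the others being *ARID4B* (batch 1, adjusted p = 0.677) and *ING2* (batch 3, adjusted p = 0.0537). Over all probes called, 1989 were higher in both and 2450 lower in both by sign. The median difference of the 29 was -0.59 for batch 1 minus batch 2, beside -0.11 over all probes, and -0.51 for batch 3 minus batch 2, beside -0.17. Taken singly, batch 1 minus batch 2 called 25 members, 8 higher and 17 lower, beside 74.2% of probes (32.7% higher, 41.5% lower). Batch 3 minus batch 2 called 25 members, 8 higher and 17 lower, beside 81.5% of probes (36.2% higher, 45.3% lower).

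Among the remodellers, all 5 SMARC genes were called, 2 higher and 3 lower in batches 1 and 3. *SMARCA2* encodes BRM, an ATPase that drives the SWI/SNF complex. Its log2 intensity ran from 11.09 to 11.74 with a median of 11.43 in batch 1, from 10.89 to 11.86 with a median of 11.44 in batch 3, and from 9.96 to 11.27 with a median of 10.75 in batch 2. Every pig of batches 1 and 3 lay above the batch 2 median, while the ranges overlapped. The differences from batch 2 were 0.72 ± 0.09 for batch 1 and 0.71 ± 0.08 for batch 3 (log2 ± SE; limma adjusted p = 8.17e-16). *SMARCA1*, the X-linked ATPase of ISWI complexes, was 0.81 ± 0.16 higher in batch 1 and 0.95 ± 0.15 higher in batch 3 (adjusted p = 6.41e-10).

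*SMARCD3* and *SMARCB1* were lower. *SMARCD3* encodes BAF60C, the subunit that links the complex to MyoD in muscle. Its values ran from 7.22 to 10.17 with a median of 8.27 in batch 1, from 7.07 to 8.47 with a median of 7.72 in batch 3, and from 7.42 to 10.29 with a median of 9.40 in batch 2. It differed from batch 2 by -0.92 ± 0.16 in batch 1 and by -1.56 ± 0.15 in batch 3 (adjusted p = 5.84e-17), and the batch 3 difference is a fold of 2.95. *SMARCB1*, a core subunit that grips the nucleosome, had medians of 6.82 in batch 1, 6.76 in batch 3 and 7.92 in batch 2, and all 18 pigs of batch 3 and 13 of 14 in batch 1 lay below the batch 2 median. Its differences were -0.94 ± 0.12 and -1.06 ± 0.11 (adjusted p = 3.54e-17). *SMARCA5*, an ISWI ATPase like *SMARCA1*, was lower too, at -0.50 ± 0.13 and -0.51 ± 0.12 (adjusted p = 1.97e-05). Of the CHD remodellers, *CHD7*, the gene of human CHARGE syndrome, had medians of 3.18 in batch 1, 3.17 in batch 3 and 4.31 in batch 2 and differed by -1.04 ± 0.18 and -1.06 ± 0.17 (adjusted p = 4.15e-10). *CHD6* was 0.40 ± 0.12 and 0.37 ± 0.11 higher (adjusted p = 0.000371), a call that was lost with the actin control probes in the model (0.12 and 0.06, adjusted p = 0.585).

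**Figure D1:**
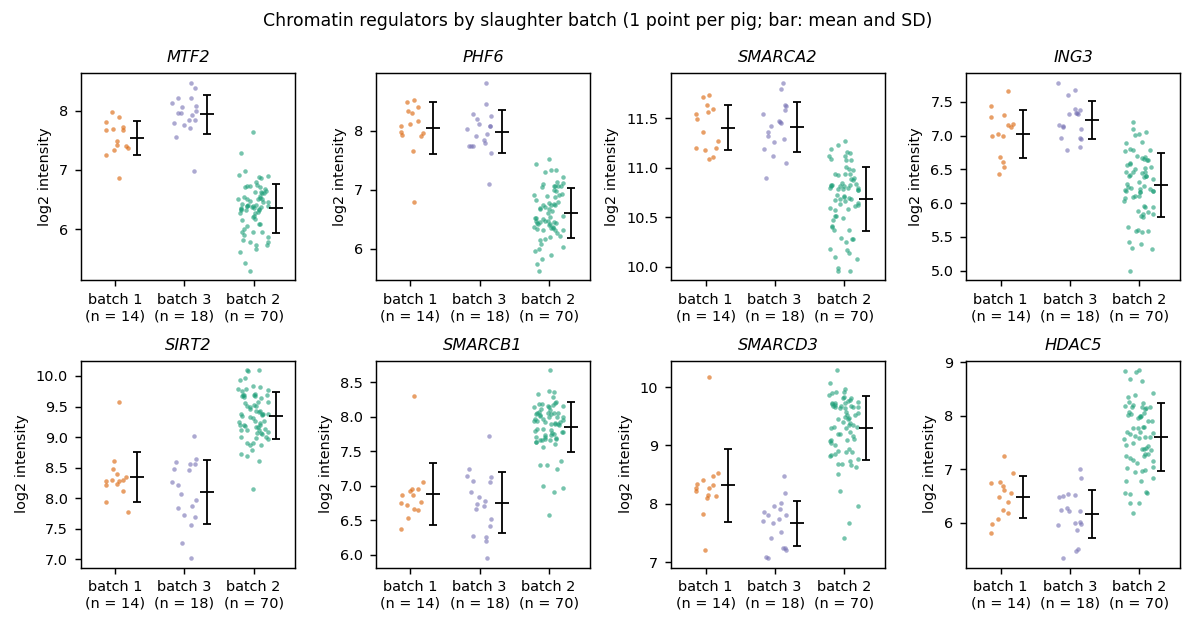
Log2 intensity of 8 chromatin regulators (vertical axes) by slaughter batch, with 1 point per pig and a bar for the mean and SD. *MTF2*, *PHF6*, *SMARCA2* and *ING3* were higher in batch 1 (n = 14) and batch 3 (n = 18) than in batch 2 (n = 70), and *SIRT2*, *SMARCB1*, *SMARCD3* and *HDAC5* were lower, and 1 pig of batch 1 lay among batch 2 for several of them.

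Of the 5 histone deacetylases, 4 were lower and 1 higher in batches 1 and 3. *HDAC5*, the class IIa enzyme that represses MEF2 and leaves the nucleus when muscle is active, ran from 5.81 to 7.24 with a median of 6.51 in batch 1, from 5.34 to 7.01 with a median of 6.22 in batch 3, and from 6.19 to 8.85 with a median of 7.65 in batch 2. No pig of batches 1 and 3 reached the batch 2 median. The differences were -1.12 ± 0.17 and -1.42 ± 0.15 (adjusted p = 1.30e-15). *HDAC6*, the X-linked tubulin deacetylase, had medians of 3.88 in batch 1, 3.83 in batch 3 and 5.52 in batch 2, and differed by -1.25 ± 0.18 and -1.43 ± 0.16 (adjusted p = 4.05e-15). *HDAC11*, the class IV enzyme, had medians of 3.22 in batch 1, 3.19 in batch 3 and 4.13 in batch 2 and differed by -0.95 ± 0.16 and -0.98 ± 0.15 (adjusted p = 1.85e-10). *HDAC3*, the enzyme of the NCoR and SMRT corepressors, was lower by both of its probes. *HDAC1*, a catalytic subunit of the SIN3, NuRD and CoREST complexes, was the exception, at 0.57 ± 0.13 and 0.76 ± 0.12 higher (adjusted p = 1.65e-08).

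The sirtuins that were called were lower. *SIRT2* ran from 7.77 to 9.58 with a median of 8.30 in batch 1, from 7.02 to 9.01 with a median of 8.14 in batch 3, and from 8.15 to 10.10 with a median of 9.36 in batch 2, with differences of -0.92 ± 0.12 and -1.15 ± 0.11 (adjusted p = 1.72e-17). *SIRT5*, the mitochondrial enzyme that removes succinyl groups, had medians of 7.63 in batch 1, 7.78 in batch 3 and 8.60 in batch 2, and all 14 and all 18 pigs lay below the batch 2 median (-0.76 ± 0.12 and -0.67 ± 0.11, adjusted p = 8.52e-11). *SIRT3*, the main mitochondrial deacetylase, differed by -0.07 ± 0.15 and -0.23 ± 0.14 and did not pass (adjusted p = 0.274).

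Among the readers, 3 were higher and 3 lower in batches 1 and 3. *MTF2* is a Polycomb-like protein that brings the Polycomb methyltransferase complex to unmethylated CpG islands, and it had the smallest p of all members. It ran from 6.87 to 7.98 with a median of 7.58 in batch 1, from 6.98 to 8.47 with a median of 7.97 in batch 3, and from 5.29 to 7.64 with a median of 6.39 in batch 2. It was 1.16 ± 0.11 higher in batch 1 and 1.55 ± 0.10 higher in batch 3 (adjusted p = 2.07e-26), folds of 2.24 and 2.93. *PHF6*, the X-linked nucleolar protein of Börjeson-Forssman-Lehmann syndrome in humans, had medians of 8.09 in batch 1, 7.98 in batch 3 and 6.54 in batch 2 and differed by 1.36 ± 0.12 and 1.29 ± 0.11 (adjusted p = 1.52e-22). *ING3*, a subunit of the NuA4 acetyltransferase complex, was 0.73 ± 0.13 and 0.93 ± 0.12 higher (adjusted p = 6.79e-12).

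*PHF23* and *ING2*, readers of methylated histone H3, and *PHF12*, which joins the SIN3 corepressor, were lower. *PHF23* had medians of 6.70 in batch 1, 6.77 in batch 3 and 7.79 in batch 2 and differed by -1.04 ± 0.14 and -1.11 ± 0.13 (adjusted p = 3.37e-15). For *ING2* the gap was -0.90 ± 0.19 in batch 1 and -0.35 ± 0.17 in batch 3 (adjusted p = 3.94e-05).

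The enzymes of lysine methylation moved in both directions. *KDM2A*, a demethylase that binds unmethylated CpG islands, ran from 6.43 to 8.46 with a median of 7.06 in batch 1, from 6.41 to 7.72 with a median of 7.12 in batch 3, and from 6.31 to 8.96 with a median of 8.22 in batch 2 (-1.05 ± 0.14 and -1.09 ± 0.13, adjusted p = 5.57e-15). *KMT5B*, which methylates histone H4, was lower too, at -0.59 ± 0.12 and -0.65 ± 0.11 (adjusted p = 2.26e-08). *KMT2E*, a SET domain protein with no clear methyltransferase activity of its own, had medians of 11.20 in batch 1, 11.16 in batch 3 and 10.65 in batch 2 on its brighter probe (0.56 ± 0.10 and 0.59 ± 0.09, adjusted p = 3.13e-10). Its other probe differed by 0.51 ± 0.29 and -0.002 ± 0.27 and did not pass (adjusted p = 0.210).

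*CDYL*, a chromodomain corepressor, was lower, at -0.78 ± 0.14 and -0.76 ± 0.13 (adjusted p = 1.40e-09). *SATB1*, which anchors chromatin loops and is best known from thymocytes, was lower too, by -0.61 ± 0.17 in batch 1 and -0.37 ± 0.16 in batch 3 (adjusted p = 0.00156). *ARID4B*, a SIN3 subunit, differed by -0.11 ± 0.24 in batch 1 and -0.91 ± 0.22 in batch 3 (adjusted p = 0.000538). The members that did not pass were *SIRT3*, *ARID4A* (adjusted p = 0.173) and *KDM5A* (adjusted p = 0.186).

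**Figure D2:**
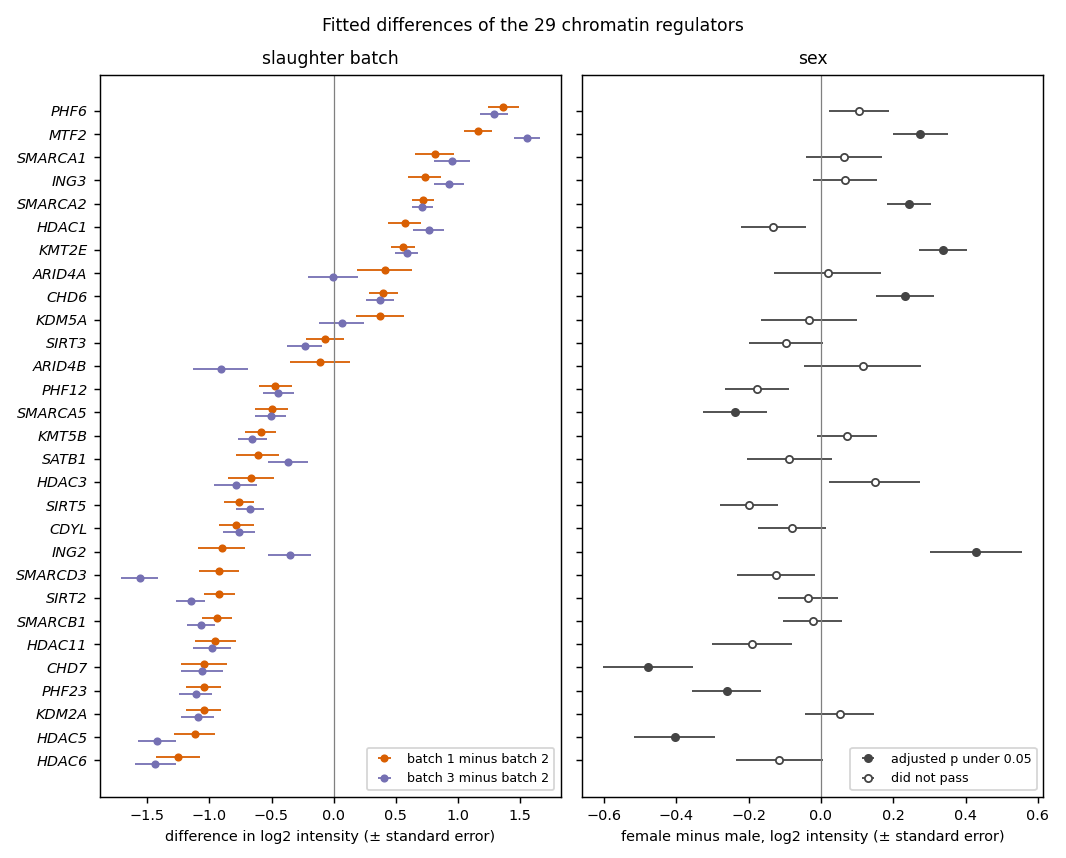
Fitted differences of all 29 genes in log2 intensity with standard errors, batch 1 and batch 3 each minus batch 2 on the left and female minus male on the right, ordered by the batch 1 difference. Differences between batches reached 1.55 (*MTF2*) and -1.56 (*SMARCD3*), and differences between the sexes lay between -0.48 (*CHD7*) and 0.43 (*ING2*).

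The actin control probes, which compare the 5′ part of the transcript with its middle and fall with broken or incompletely copied RNA, moved with batch. Their difference was -1.28 ± 0.30 in batch 1, -1.32 ± 0.43 in batch 3 and -0.80 ± 0.29 in batch 2 (log2, SD). With this difference as a further term, 20 members were called for it (13 rising and 7 falling with it), beside 52.8% of probes (27.6% rising, 25.2% falling). All 19 members called for both had a slope opposite in sign to their batch difference. This was not counted over all probes, so it is not shown to be particular to the members. The batch test then called 25 members, 24 of them among the first 26, beside 76.9% of probes. The lost ones were *PHF12* (adjusted p = 0.194) and *CHD6* (adjusted p = 0.585). Most named members were reduced in size, *MTF2* to 0.98 in batch 1 and 1.35 in batch 3, and *HDAC6* to -0.79 and -0.93. The part of RNA quality in the remaining differences was not tested. Markers of other cells also differed by batch: 7 of 7 endothelial, 6 of 7 fibroblast and matrix, 4 of 5 macrophage, 3 of 4 adipocyte and 5 of 7 muscle genes were called, beside 86.6% of all probes in the same test. The mean of the muscle list was 13.2 in batch 1, 13.1 in batch 3 and 13.9 in batch 2. That of the fibroblast list was 8.04, 7.80 and 7.58 in the same order. Within the lists the called genes went both ways, by sign in both batch 1 and batch 3. Of the muscle genes 1 was higher (*TNNC1*) and 4 lower, and of the fibroblast genes 4 were higher and 2 lower (*COL1A2*, *THY1*). Endothelial genes gave 3 higher and 3 lower, macrophage genes 1 and 2, and adipocyte genes 1 and 1. The listed lymphocyte and red cell markers are not analysed here. The part of other cells in the result was not tested.

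The batch 1 pig that was nearer to batch 2 was the highest of its batch for 12 of the 18 members that were lower and the lowest for 5 of the 8 that were higher. Without the 5 arrays nearer another batch, 28 of the 29 members were called for batch, beside 87.1% of probes. Those arrays were chosen for their likeness to another batch, so that leaving them out widens batch differences by construction.

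Sex called 9 of the 29 members (31.0%), beside 26.1% of all probes, so that members were called about as often as other probes. In females 5 were higher and 4 lower than in males, beside 11.7% and 14.4% of probes. The median difference of the 29 was -0.03, beside -0.03 over all probes. No class moved as a whole: the SMARC genes gave 1 higher and 1 lower, the CHD genes 1 and 1, the readers 2 higher and 1 lower, the deacetylases 1 lower, the methyltransferases 1 higher, and the sirtuins, demethylases, ARID genes, *CDYL* and *SATB1* none.

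Higher in females was the ATPase gene *SMARCA2*. It ran from 10.14 to 11.71 with a median of 10.99 in females, and from 9.96 to 11.86 with a median of 10.71 in males. The difference was 0.24 ± 0.06 (female minus male; limma adjusted p = 0.00171). Of the 55 females 45 lay above the male median, although the ranges overlapped almost wholly. *MTF2* ran from 5.79 to 8.39 with a median of 6.73 in females and from 5.29 to 8.47 with a median of 6.39 in males (0.27 ± 0.08, adjusted p = 0.00472). *ING2*, part of a SIN3 deacetylase complex, ran from 4.91 to 8.37 with a median of 7.19 in females and from 5.20 to 8.30 with a median of 6.78 in males (0.43 ± 0.13, adjusted p = 0.0078), a fold of 1.35. *CHD6* had medians of 6.26 in females and 6.03 in males (0.23 ± 0.08, adjusted p = 0.0251), and 40 females lay above the male median.

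*KMT2E* had the smallest p for sex on its brighter probe, from 10.08 to 11.56 with a median of 10.96 in females and from 9.64 to 11.51 with a median of 10.53 in males (0.34 ± 0.07, adjusted p = 8.85e-05). The other *KMT2E* probe gave the opposite sign, -0.46 ± 0.20 (adjusted p = 0.069). After sex, batch and weight the 2 probes correlated at r = -0.101 over the 102 pigs (rho = -0.063, permutation p = 0.311 and 0.533). The direction for *KMT2E* is therefore that of 1 probe. For *ARID4B* and *HDAC3* the 2 probes moved together, with r = 0.692 and 0.615 (rho 0.684 and 0.606, permutation p = 1e-05 for each, the smallest that 100000 permutations can give; 3 genes compared, adjusted p = 1.50e-05).

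Lower in females was *CHD7*, which ran from 2.28 to 5.43 with a median of 3.81 in females and from 2.83 to 5.81 with a median of 4.52 in males (-0.48 ± 0.12, adjusted p = 0.00244), a fold of 1.39. *HDAC5* ran from 5.81 to 8.34 with a median of 6.98 in females and from 5.34 to 8.85 with a median of 7.77 in males (-0.40 ± 0.11, adjusted p = 0.0046), and 48 of 55 females lay below the male median. The SD of *HDAC5* was 0.68 in females and 0.94 in males, and that of *CHD7* was 0.70 in females and 0.92 in males, and the difference in spread was not tested. *PHF23*, the reader that also restrains autophagy, had medians of 7.42 in females and 7.78 in males (-0.26 ± 0.10, adjusted p = 0.0333). *SMARCA5* had medians of 6.80 in females and 7.24 in males (-0.24 ± 0.09, adjusted p = 0.0368). *PHF23* and *SMARCA5* were the weakest calls, and without the 5 arrays nearer another batch neither passed (adjusted p = 0.0753 and 0.0596). *SIRT5* just missed, at -0.20 ± 0.08 (adjusted p = 0.0572). The 3 X-linked members were not called: *PHF6* differed by 0.10 ± 0.08, *SMARCA1* by 0.06 ± 0.11 and *HDAC6* by -0.12 ± 0.12. Of the cell type markers, 3 of 7 endothelial genes were lower in females (*PECAM1*, *TEK*, *ESAM*), and 2 of 7 fibroblast genes (*DCN*, *FBN1*), 1 of 4 adipocyte genes (*ADIPOQ*) and 1 of 2 satellite cell genes (*MSTN*) were higher, beside 26.1% of all probes called. Their part in the sex differences was not tested. The actin difference was -0.97 ± 0.38 in females and -0.94 ± 0.41 in males, and with it in the model 10 members were called, the same 9 among them, beside 31.7% of probes.

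**Figure D3:**
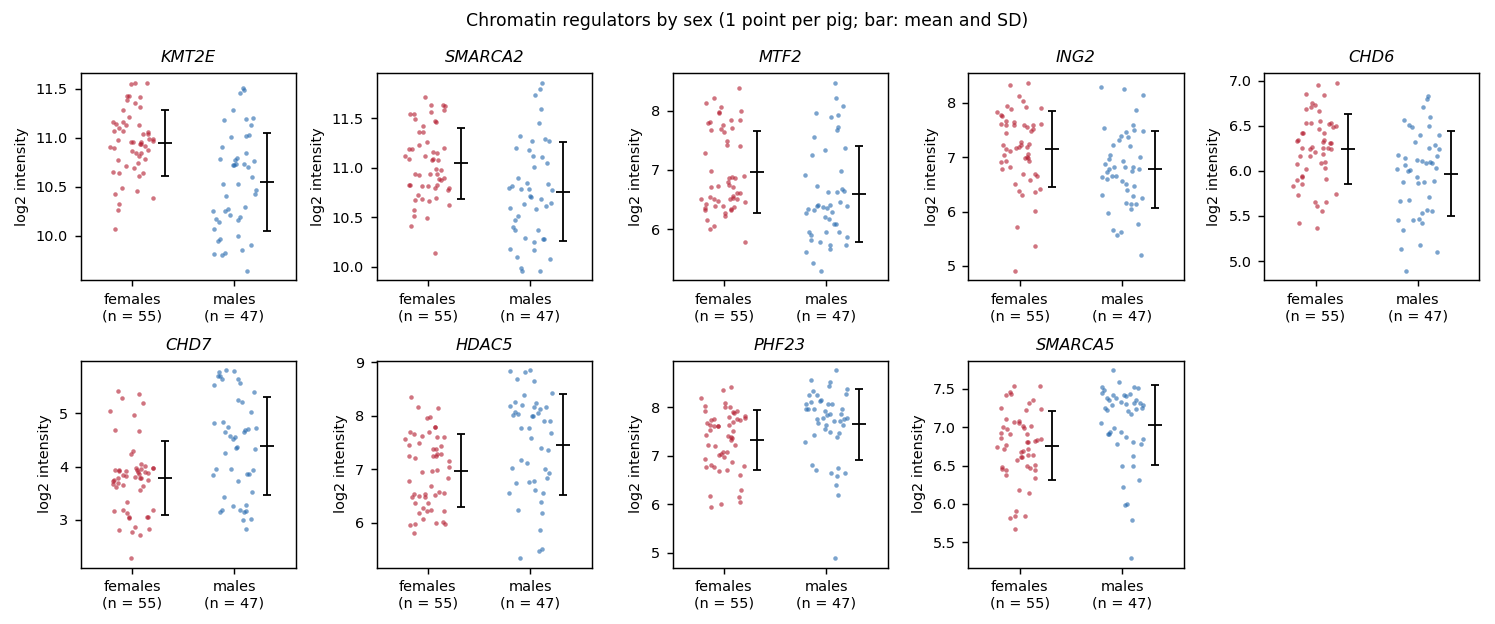
Log2 intensity of the 9 chromatin regulators called for sex (vertical axes), females left (n = 55) and males right (n = 47), with 1 point per pig and a bar for the mean and SD. The upper row holds the genes higher in females, the lower row those lower in females, and the ranges of the sexes overlapped for each gene.

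Within single batches the sex differences had these sizes. *KMT2E* differed by 0.04 in batch 1, 0.03 in batch 3 and 0.45 in batch 2, *CHD7* by 0.02, 0.06 and -0.74, and *HDAC5* by -0.21, 0.16 and -0.58 (female minus male, in the same order of batches). *SMARCA5* kept a like size, at -0.18, -0.16 and -0.24. *ING2* differed by 0.41, 0.01 and 0.57, *SMARCA2* by 0.10, 0.06 and 0.32, and *MTF2* by -0.04, 0.04 and 0.39. *CHD6* differed by 0.10, 0.08 and 0.29, and *PHF23* by -0.04, -0.05 and -0.35. Within batch 2 alone 9 members were called, the same 9, beside 32.4% of probes. Batch 2 held 70 of the 102 pigs behind the first calls, so it is no separate check of them. A test of the difference between batches, the sex by batch interaction, called 0 of the 29 members and 0% of all probes (limma), with 4 members (*KMT2E*, *HDAC5*, *CHD7*, *SMARCA1*) and 425 probes at an unadjusted p under 0.05. The adjusted p was 0.611 for *KMT2E*, 0.625 for *HDAC5* and 0.633 for *CHD7*, so that a batch-dependent sex difference was not shown.

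Carcass weight called 0 members and 0% of all probes (limma), with 5 members and 589 probes at an unadjusted p under 0.05. The smallest p belonged to *HDAC6*, whose slope was 0.18 ± 0.06 per 10 kg (adjusted p = 0.337). *SIRT2* had 0.11 ± 0.04 (adjusted p = 0.408), *HDAC3* 0.14 ± 0.07 and *PHF6* -0.09 ± 0.04 (adjusted p = 0.453 for each). The sex by weight interaction called 0 members and 0% of probes, with 1 member (*SATB1*, -0.24 ± 0.12 per 10 kg) and 292 probes at an unadjusted p under 0.05. Its slope was -0.24 in females and 0.05 in males, and its adjusted p was 0.914.

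The members varied together from pig to pig. After sex, batch and weight were removed, 224 of the 406 pairs of members were correlated at an adjusted p under 0.05 (Pearson's r, 100000 permutations, Benjamini-Hochberg over the 406 pairs), 114 positively and 110 negatively. An absolute r of at least 0.4 was reached by 27.3% of member pairs, beside 15.4% of all pairs of named genes. Of the 224 pairs, 186 had the same sign within all 3 batches. The counts of 224 and 186 were not made over all pairs of named genes, so neither has a background here. *KDM2A* was correlated with 26 of the 28 others, *SMARCD3* with 24 and *PHF6* with 23, while *ING2* was correlated with 5 and *SATB1* with 2. The widest spread over all pigs was that of *HDAC6* (SD 0.93), *ARID4B* (0.86) and *CHD7* (0.86), and the narrowest that of *CHD6* (0.44), *SMARCA2* (0.45) and *KMT2E* (0.46), and these SDs include the batch differences. Within batch 2 the widest were *ARID4A* (0.77), *CHD7* (0.75) and *ARID4B* (0.75), and *HDAC6* had 0.67.

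The pairs fell into blocks that ran along the batch differences. The strongest was *KDM2A* with *SMARCD3*, the CpG island demethylase with the muscle subunit of SWI/SNF, at r = 0.853 (rho = 0.805, permutation p = 1e-05 for both, adjusted p = 4.19e-05). It was 0.90 in batch 1, 0.511 in batch 3 and 0.901 in batch 2, and 0.809 without the 2 pigs farthest from the median. *KDM2A* with *SMARCB1* gave r = 0.797 (rho 0.747) and *SMARCB1* with *SMARCD3*, subunits of 1 complex, gave 0.775 (rho 0.726). *SIRT2* was tied to *SMARCB1* at 0.721 (rho 0.670) and to *KDM2A* at 0.706 (rho 0.667), and *HDAC6* to *SMARCD3* at 0.697 (rho 0.647). Without the 5 arrays nearer another batch these 6 were between 0.578 and 0.758.

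The other block was opposed to it and held *MTF2* and *PHF6*, which were correlated with each other at r = 0.616 (rho 0.513). The most negative pairs were *HDAC5* with *MTF2* (r = -0.643, rho = -0.639), *MTF2* with *SIRT2* (r = -0.641, rho = -0.596), *HDAC6* with *PHF6* (r = -0.605, rho = -0.557) and *PHF6* with *SIRT2* (r = -0.599, rho = -0.459). Each pair named here had a permutation p of 1e-05 for r and for rho and an adjusted p of 4.19e-05 for r. Within batch 2 alone the negative pairs were at -0.637, -0.636, -0.609 and -0.518, and batch 2 still held 3 of the 5 arrays nearer another batch. Values without those 5 arrays are not reported here for the negative pairs. The genes of the first block were lower and those of the second higher in batches 1 and 3, although batch had been removed from these values.

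**Figure D4:**
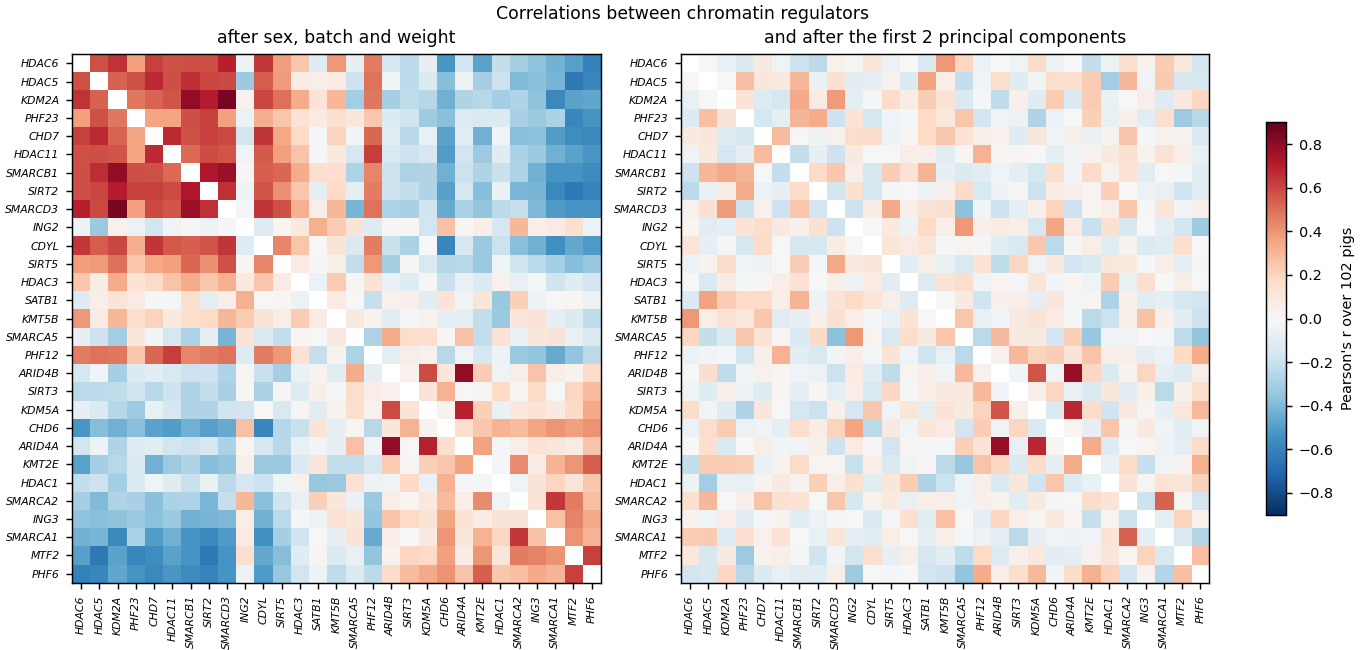
Pearson's r over 102 pigs between the 29 chromatin regulators, in the order of their batch 1 difference, after sex, batch and weight (left) and after the first 2 principal components of all probes as well (right). On the left a block of positive r joins *HDAC6* to *SMARCD3* and another joins *SMARCA2* to *PHF6*, with negative r between them, and on the right 4 pairs kept an absolute r of at least 0.4.

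Much of this was shared with the array as a whole. The first 2 principal components of the residuals of all probes held 18.0% and 11.5% of their variance. With the actin difference removed, 17.7% of member pairs reached an absolute r of 0.4, beside 11.4% of all pairs. With the 2 components removed, 4 of the 406 pairs (0.985%) did, beside 3.28% of all pairs, and *KDM2A* with *SMARCD3* was then at 0.386. None of the other pairs named above reached 0.4.

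The 4 pairs that remained were *ARID4A* with *ARID4B*, *ARID4A* with *KDM5A*, *ARID4B* with *KDM5A*, and *SMARCA1* with *SMARCA2*. They were singled out after their values had been seen. ARID4A and ARID4B are close relatives that sit in the same SIN3 deacetylase complex, and ARID4A and KDM5A were both first isolated as proteins that bind the retinoblastoma protein. *ARID4A* with *ARID4B* gave r = 0.795 (rho = 0.777, permutation p = 1e-05 for both, adjusted p = 4.19e-05). It was 0.867 in batch 1, 0.655 in batch 3 and 0.826 in batch 2, 0.789 without the 2 pigs farthest from the median, 0.816 in females and 0.780 in males, and 0.784 without the 2 components. *ARID4A* with *KDM5A* gave 0.696 (rho = 0.685, the same p), with 0.345 in batch 1, 0.683 in batch 3 and 0.788 in batch 2, and 0.679 without the components.

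*ARID4B* with *KDM5A* gave 0.587 (rho 0.537), and 0.564 without the components. The second *ARID4B* probe gave r = 0.679 with *ARID4A* and 0.475 with *KDM5A*, so the relation did not rest on a single *ARID4B* probe. That second probe averaged 3.85, itself near the background. None of the 3 genes was called for sex, and only *ARID4B* was called for batch. *ARID4A* averaged 3.93, near the background, and ran from 2.89 to 5.68. The remaining pair, *SMARCA1* with *SMARCA2*, joined the ATPases of 2 remodeller families and gave 0.640 (rho 0.632), with 0.761 in batch 1, 0.845 in batch 3 and 0.580 in batch 2, and 0.529 without the components.

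**Figure D5:**
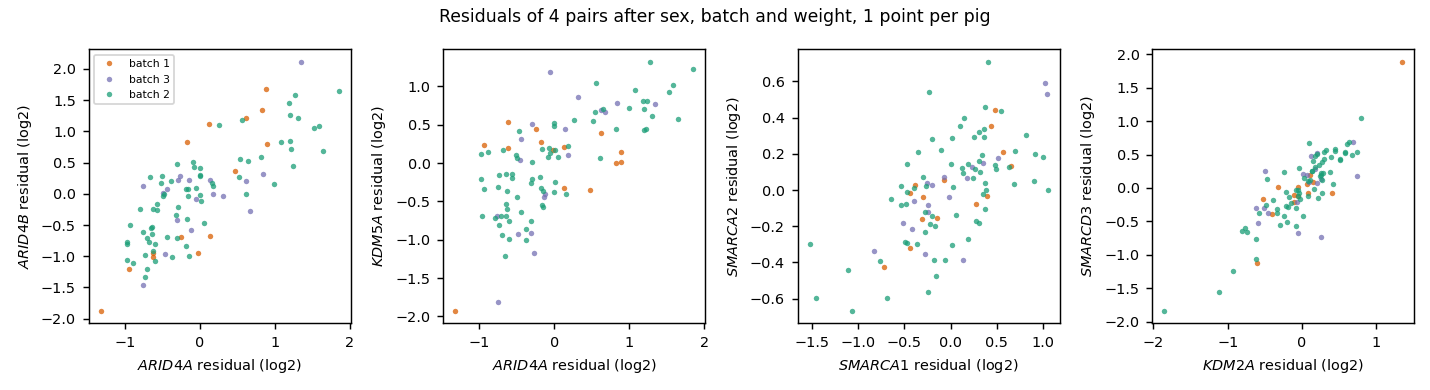
Residual log2 intensity after sex, batch and weight for 4 pairs of chromatin regulators, with 1 point per pig coloured by batch. *ARID4A* with *ARID4B*, *ARID4A* with *KDM5A* and *SMARCA1* with *SMARCA2* kept r of 0.784, 0.679 and 0.529 once the first 2 principal components had been removed, and *KDM2A* with *SMARCD3*, the pair with the highest r before that, was at 0.386.

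The genes most like *ARID4A* among the other 2200 named genes, by r of residuals over the 102 pigs, were *PPIG* (0.852), a nuclear cyclophilin of the splicing machinery, *ZC3H13* (0.831), a subunit of the RNA methylation complex, *ARID4B*, *CFDP1* (0.766) and *DDX46* (0.746), a splicing helicase. Those most like *ARID4B* were *PPIG* (0.878), *DHX9* (0.855), an RNA helicase, *CFDP1* (0.829), *ZC3H13* (0.829) and *DST* (0.817). Those most like *KDM5A* were *PRRC2C* (0.796), *GOLGA2* (0.782), *GAPVD1* (0.780), *CCNJ* (0.766) and *ROCK2* (0.749). For *SMARCA1* and *SMARCA2* each was the second nearest gene to the other, after *TM2D3* (0.648) for *SMARCA1* and *ADHFE1* (0.654) for *SMARCA2*. These lists were chosen after the pairs had been seen and are given as a description.

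Members were also set against 7 of the genes that the study followed for fatty acid composition, by adding each gene's residual to the model. *ELOVL6*, *NUDT7* and *KIT* carried those names in the annotation, the probes of *MGST2*, *LIPG* and *IL1R2* had no single symbol there and are named as the study names them, and the probe that the study calls *RDH16* is annotated as *ATP2A2*. Called members numbered 11 for *MGST2* (24.8% of probes), 6 for *ELOVL6* (20.7%), 1 for *LIPG* (13.7%), 4 for *NUDT7* (22.6%), 0 for *KIT* (0.0367%), 3 for *IL1R2* (4.11%) and 4 for the *RDH16* probe (7.05%). Of the 29 members this was 37.9% for *MGST2*, 20.7% for *ELOVL6*, 3.45% for *LIPG*, 13.8% for *NUDT7*, 10.3% for *IL1R2* and 13.8% for the *RDH16* probe. For *KIT*, 4 members and 652 probes had an unadjusted p under 0.05 (limma).

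*MGST2*, a microsomal glutathione transferase, went with lower *CDYL* (-0.22 ± 0.04 per SD of the gene, adjusted p = 0.000553), *CHD7* (-0.23 ± 0.06) and *HDAC6* (-0.21 ± 0.06). *ELOVL6*, which lengthens palmitate, went with higher *MTF2* (0.13 ± 0.04) and *SMARCA2* (0.10 ± 0.03) and with lower *PHF23* (-0.15 ± 0.04). *IL1R2*, the decoy receptor for interleukin 1, went with higher *SATB1* (0.30 ± 0.05, adjusted p = 7.26e-05), with r = 0.533 over all pigs, 0.455 in batch 1, 0.534 in batch 3 and 0.551 in batch 2. This was called again with the actin difference, with the 2 components and in batch 2 alone. *HDAC1* was lower (-0.15 ± 0.04) and *SMARCA2* higher (0.09 ± 0.03) with *IL1R2*. *LIPG*, endothelial lipase, went with lower *ING2* (-0.23 ± 0.06). *NUDT7*, a peroxisomal CoA hydrolase, went with higher *HDAC1* (0.16 ± 0.04) and lower *KDM2A* (-0.16 ± 0.04) and *SMARCD3* (-0.18 ± 0.05). The *RDH16* probe went with lower *PHF6* (-0.13 ± 0.04) and higher *CDYL* (0.14 ± 0.04) and *HDAC11* (0.17 ± 0.05). With the 2 components in the model the counts for these 7 genes were 0 or 1, beside 0 (*MGST2*) to 876 (*NUDT7*) of the 5448 probes.

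Other chromatin genes outside the naming rule were counted for context from lists of 207 genes, of which 38 were measured. Sex called 3 higher and 6 lower in females, batch called 33 (11 higher and 21 lower in both batch 1 and batch 3 by sign), and weight called 0. These are 23.7% for sex, beside 26.1% of all probes, and 86.8% for batch, beside 86.6%, so that both shares were near the background. *ASXL2*, a Polycomb partner, averaged 9.36 in females and 8.95 in males (0.37 ± 0.08, adjusted p = 0.000468), and *MTA2*, a NuRD subunit beside HDAC1, averaged 6.66 in females and 6.99 in males (-0.28 ± 0.07, adjusted p = 0.00193). Of 8 histone chaperones and architectural proteins, 4 were lower in females (*NAP1L4*, *SUPT6H*, *HMGA1*, *LMNA*), beside 14.4% of all probes, and the list's direction was not tested. By batch, *JARID2*, a partner of the Polycomb methyltransferase complex, had means of 6.42 for batch 1, 6.78 for batch 3 and 5.85 for batch 2. It lay on the side of *MTF2* (0.52 ± 0.13 and 0.87 ± 0.12, adjusted p = 6.03e-10). Of the 8 Polycomb and DNA methylation genes measured, 4 were called and higher in both batches, and 2 (*MBD2*, *BAP1*) were called and lower. *DPF2*, a SWI/SNF subunit, had means of 5.06 for batch 1, 4.84 for batch 3 and 7.07 for batch 2, on the side of *SMARCB1* and *SMARCD3* (-1.93 ± 0.19 and -2.13 ± 0.17, adjusted p = 3.68e-23). *SS18*, another SWI/SNF subunit, lay on the other side, with means of 8.97 for batch 1, 8.97 for batch 3 and 8.17 for batch 2 (0.76 ± 0.11 and 0.76 ± 0.10, adjusted p = 6.42e-14). These genes were picked from the list by their values.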

How the data were processed

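*Longissimus dorsi* RNA of 102 pigs had been hybridized to porcine Affymetrix arrays, 1 per pig. The deposited values are log2 intensities, which the authors had background-corrected and normalized with GCRMA (version not given in the sources used here). GCRMA pulls probes near background together and makes array totals alike, so that low probes and overall shifts are poorly resolved. The authors had also filtered probes, keeping those with over 20% of values beyond 1.5-fold of the probe's median, and 98.0% of the tested probes met this when it was recomputed. Of 5493 probes, 44 controls were left out. Names came from the array annotation: 2639 probes had 1 symbol, 49 several and 2761 none. All 29 members matched RefSeq (Sscrofa11.1). No column was left unused. Arrays hold no counts, so that the number of pigs limits the precision.

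limma 3.58.1 in R 4.3.3 (lmFit, eBayes) was fitted to all 5449 probes with sex, slaughter batch (3 levels) and carcass weight, the systematic effects of the study's model. Tests were two-sided, with Benjamini-Hochberg adjustment over all probes. Groups came from the sample labels, and no array was regrouped. Interactions, the difference between the 5′ and middle actin probes, and the residual of each of 7 genes that the study followed (results for another are not reported here) were added in turn. Correlations used residuals and 100000 permutations (Python 3.11.15, numpy 2.4.6, scipy 1.17.1). The methods were tested on simulated data first.

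Named with values were all members called for sex, the 16 with the smallest p for batch, the 4 with the smallest p for weight where none was called, up to 3 interactions, 3 members per study gene, the 8 highest and 4 lowest pairs, the 3 widest and 3 narrowest members, and every gene with several probes. Others were added after their values had been seen. The members and lists were chosen with earlier results of these data known. Pigs were treated as independent, because the pedigree, like genotypes and fatty acid composition, is not used here. Alternatives were quantile normalization, the actin difference, 2 principal components, array weights, age, probes with a mean of at least 4, batch as a random term, no other covariates, batch 2 only, each sex only for pairs, rho, and the next highest probe. Leaving out the arrays nearer another batch, the array with the lowest correlation and, for pairs, the arrays with unclear sex was chosen after seeing the data.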

Additional observations from a re-analysis of the deposited data

How the results depend on the processing

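The count of members called for sex lay between 7 and 12 under every alternative run and the count for batch between 25 and 28. The 2 principal components were taken from residuals after sex, batch and weight. Adding them could therefore not change a fitted sex, batch or weight effect or its sign, only its error and adjusted p. For these effects the component runs are no check of the size or direction. Over all probes, sex called from 1266 (no other covariates) to 2130 (2 principal components). Batch called from 4192 (actin difference) to 4841 (2 principal components) of the 5449 probes. The only named differences that changed sign were those of *KMT2E* on its next highest probe. They were -0.46 for sex (limma adjusted p = 0.069) and -0.0021 for batch 3 minus batch 2 (limma adjusted p = 0.995), neither past the threshold. The F test over the batches gave an adjusted p of 0.21 for that probe. For sex, 103 other named values kept their side of the threshold and 5 did not, those of *PHF23* (adjusted p = 0.0655 with quantile normalization, 0.066 with no other covariates and 0.0753 without the arrays nearer another batch) and *SMARCA5* (0.0726 with quantile normalization, 0.0596 without those arrays). For carcass weight, where 0 members were called, 2 were called with the first 2 principal components, beside 258 of the 5449 probes. With array weights 2 were called (*HDAC6* and *SIRT2*), beside 126 probes. With no other covariates 20 were called, beside 3412 probes. The components lower the residual spread of all probes, and without covariates batch and sex are in the slope.

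For *MGST2* the count of 11 members became 2 with the actin difference and 0 with the components. Of the 5448 probes, 1353 were called at first, 314 with the actin difference and 0 with the components. For *ELOVL6* the count of 6 became 2 with actin, 0 with the components and 0 in batch 2. Over all probes 1130 became 775, 488 and 338 in the same order. For *LIPG* the count of 1 became 2 with actin and 0 with the components, beside 849 and 14 probes. In batch 2 alone 1 member was called, beside 573 probes. This was *SMARCA5* (limma adjusted p = 0.00931), while *ING2*, the member called at first, did not pass (limma adjusted p = 0.0925). With the components *NUDT7* had 1 in place of 4, *SMARCA2*, which was none of the 4, beside 876 probes. *IL1R2* then had 1 in place of 3, *SATB1*, which was among the 3, beside 123 probes. For the *RDH16* probe the 4 became 0 with actin, 0 with the components and 0 in batch 2. Over all probes 384 became 6, 10 and 24 in the same order. Pairs called were 30 of 406 with the components and 95 in males only, against 224, and 207 in females only. Pairs of all named genes were not counted at this threshold. Batch 2 alone held 70 pigs and gave 199 pairs, and there were 55 females and 47 males, against 102 pigs in the full set. The cause of these changes, pig number among them, was not tested.

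No paired analysis was possible because each pig gave 1 array and the labels tie no female to a male. Groups held over 5 pigs, so that single replicates were not left out in turn. Low signal limits *ARID4A*, *HDAC11*, *SIRT3* and the second *ARID4B* probe. It also limits *CHD7* (medians 3.18 in batch 1 and 3.17 in batch 3) and *HDAC6* (3.88 and 3.83) in those batches, and so their batch differences. The sex difference of *CHD7* in those batches is limited in the same way.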
